A study of Mus musculus with 6 samples.

Results

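The genes described here are 8 that code for proteins of peripheral myelin: Pmp22, Mbp, Pmp2, Mal, Cnp, Mag, Prx and Drp2. They were chosen by name, with earlier results of these data known. In the count table they were found by their Ensembl identifiers, 8 of the 55401 genes listed. All 8 passed the filter on low counts (2 or more counts in 5 or more libraries), which left 22318 genes for the tests. The libraries are bulk poly(A) RNA-seq of primary Schwann cells (SCs) cultured from adult mouse dorsal root ganglia, 3 from WT mice and 3 from Plxnb1-/- mice. The Plxnb1-/- mice lack Plexin-B1, a semaphorin receptor, in every cell of the body, since a gene-trap cassette with lacZ interrupts the gene. According to the study's methods, cultures of both genotypes were grown with serum, forskolin and neuregulin, were depleted of fibroblasts with beads against Thy1 and were used after several passages. Transcripts of neuron markers were still detected, at a summed 165 to 212 CPM over 10 markers, where CPM is counts relative to the library's total. Tubb3 made up most of that sum, at 127 to 153 CPM. Each library pools whatever cell types a culture held. The ages, the sexes and the number of animals behind each library are not given in the sources used here, so p-values measure the spread between these libraries. The comparison asks whether myelin protein transcripts differ in SCs that lack Plexin-B1.

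In the peripheral nerve a SC wraps a single axon segment, and its membrane is compacted into myelin with only small channels of cytoplasm left open. Pmp22, Mbp, Pmp2 and Mal belong to compact myelin or to the rafts that carry its proteins and lipids, Cnp and Mag lie mainly in the uncompacted parts, and Prx and Drp2 tie the outer surface of the sheath to the basal lamina through dystroglycan. In vivo these genes are switched on under the transcription factors Egr2 and Sox10 when SCs begin to myelinate, and they fall again when SCs lose their axon after injury.

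The proximal promoters of the genes are shown first, because Sox10, Egr2 and the TEAD factors that work with Yap1 and Wwtr1 are known to act on myelin genes. Promoter windows from RefSeq (GRCm38.p6, 250 bases before to 50 after a transcript start) were at hand for 5 of the 8 genes, with 10 windows in all. They were searched on both strands for ACAAAG and ACAATG (SOX cores), GCGTGGG (EGR) and CATTCC (TEAD), none of which overlap within a printed window. In the windows printed below, in lower case, 5′ to 3′ on the strand of the gene, capitals mark the matches.
Prx, chr7:27499074-27499373 (+): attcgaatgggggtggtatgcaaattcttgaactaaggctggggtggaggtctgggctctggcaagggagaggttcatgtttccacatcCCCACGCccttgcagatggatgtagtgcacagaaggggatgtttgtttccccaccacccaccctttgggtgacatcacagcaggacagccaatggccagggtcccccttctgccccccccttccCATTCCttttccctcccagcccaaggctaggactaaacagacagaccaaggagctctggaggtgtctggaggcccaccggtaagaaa
Cnp, chr11:100574689-100574988 (+): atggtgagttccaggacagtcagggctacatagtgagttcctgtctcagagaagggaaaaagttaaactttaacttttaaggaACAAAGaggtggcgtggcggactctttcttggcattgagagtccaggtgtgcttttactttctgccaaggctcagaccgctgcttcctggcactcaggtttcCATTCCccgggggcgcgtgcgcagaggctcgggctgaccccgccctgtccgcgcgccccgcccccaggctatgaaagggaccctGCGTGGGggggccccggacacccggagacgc
Mal, chr2:127656646-127656945 (-): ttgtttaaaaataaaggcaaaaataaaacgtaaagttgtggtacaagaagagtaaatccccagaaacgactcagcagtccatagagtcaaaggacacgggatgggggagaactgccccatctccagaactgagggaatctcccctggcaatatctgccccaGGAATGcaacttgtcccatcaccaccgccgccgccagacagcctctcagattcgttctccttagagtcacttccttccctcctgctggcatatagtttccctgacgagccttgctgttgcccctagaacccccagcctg
Pmp22, chr11:63128732-63129031 (+), the most upstream of its 4 windows: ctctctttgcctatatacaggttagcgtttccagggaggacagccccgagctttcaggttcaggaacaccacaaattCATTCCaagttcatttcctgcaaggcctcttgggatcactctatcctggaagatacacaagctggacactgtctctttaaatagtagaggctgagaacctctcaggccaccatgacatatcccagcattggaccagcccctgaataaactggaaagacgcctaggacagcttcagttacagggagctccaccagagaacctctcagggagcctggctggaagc

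With the first transcribed base at 0, the Prx window held an EGR match in the reverse direction at -161 and a TEAD match at -37. The Cnp window held ACAAAG at -167, a TEAD match at -65 and an EGR match at 20. The Mal window held a reverse TEAD match at -89, and the Pmp22 window held a TEAD match at -173, whereas the other 3 windows of Pmp22 held none of the 4 motifs. Of the 3 windows of Mag, those that overlap each other shared a single reverse ACAAAG match, and the remaining window held a TEAD match. Among all 32851 windows of the same length, 18.7% held ACAAAG, 12.6% held ACAATG, 5.04% held the EGR letters and 14.7% held the TEAD letters. Matches to the SOX and TEAD letters are thus common, and those to the EGR letters are less so. A match is a string of letters and no measured site of binding.

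The 8 genes differed widely in level. As counts per kilobase of annotated exon, scaled to the same total in each library, Pmp22 was highest at a mean of 712 over the 6 libraries, followed by Cnp at 258, Mal at 170, Pmp2 at 143, Mbp at 91.1 and Prx at 66.9. Drp2 at 1.39 and Mag at 0.953 were far below. On this scale every gene exceeded the next in the order in 6 of 6 libraries. The range over libraries was separate from that of the next gene only for Pmp22 above Cnp (2.63 to 2.86 times within a library) and for Prx above Drp2 (28.0 to 73.6 times). Cnp and Mal, Mal and Pmp2, Pmp2 and Mbp, Mbp and Prx, and Drp2 and Mag overlapped in range, and Drp2 exceeded Mag by as little as 1.02 times in a library. With the longest transcript in place of all exons, Mbp and Pmp2 changed places and 6 of 8 ranks stayed the same. The FPKM values deposited by the authors use the whole span of a gene as its length (within 1% for 99.5% of 13619 genes compared), and on that scale 0 of 8 genes held its rank, with Cnp at 14.8 FPKM above Pmp22 at 14.6 and Pmp2 at 13.1.

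**Figure D1:**
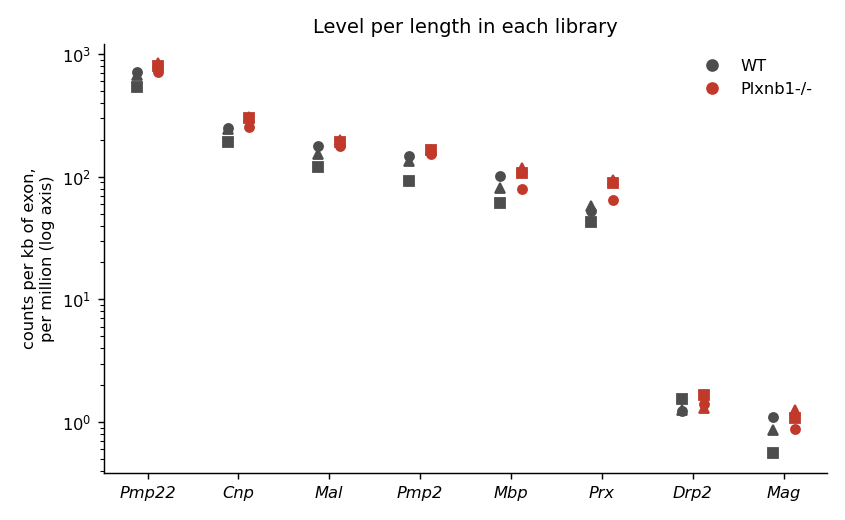
Level of each gene in each of the 6 libraries, as counts per kilobase of exon scaled to the same total per library (TPM), on a log axis (grey WT, red Plxnb1-/-; circle, square and triangle are replicates 1, 2 and 3). Drp2 and Mag sit between 0.555 and 1.67, and the other 6 genes between 42.9 and 837.

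All 8 genes had a higher mean in Plxnb1-/- SCs, and the differences were small. Their median log2 fold change was 0.32, against 0.00 over all tested genes, of which 51.5% were higher. By edgeR's quasi-likelihood test with Benjamini-Hochberg adjustment, 0 of the 8 passed (adjusted p below 0.05 and a log2 fold change beyond 0.25), where 0.0358% of all tested genes did. At an unadjusted p below 0.05, 5 of the 8 were higher, against 6.95% of all tested genes. By DESeq2 on the same genes 1 of the 8, Prx, was called higher, against 0.69% of all tested genes. By edgeR without the filter on low counts, Prx was again the single one called, against 0.385% of the genes called higher. In 3 of the 8, Prx, Cnp and Pmp2, each Plxnb1-/- library lay above each WT library, which held for 9.3% of all tested genes. Since a bulk library averages its cells, a larger part of SCs in a culture and more of a transcript per SC cannot be told apart.

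**Figure D2:**
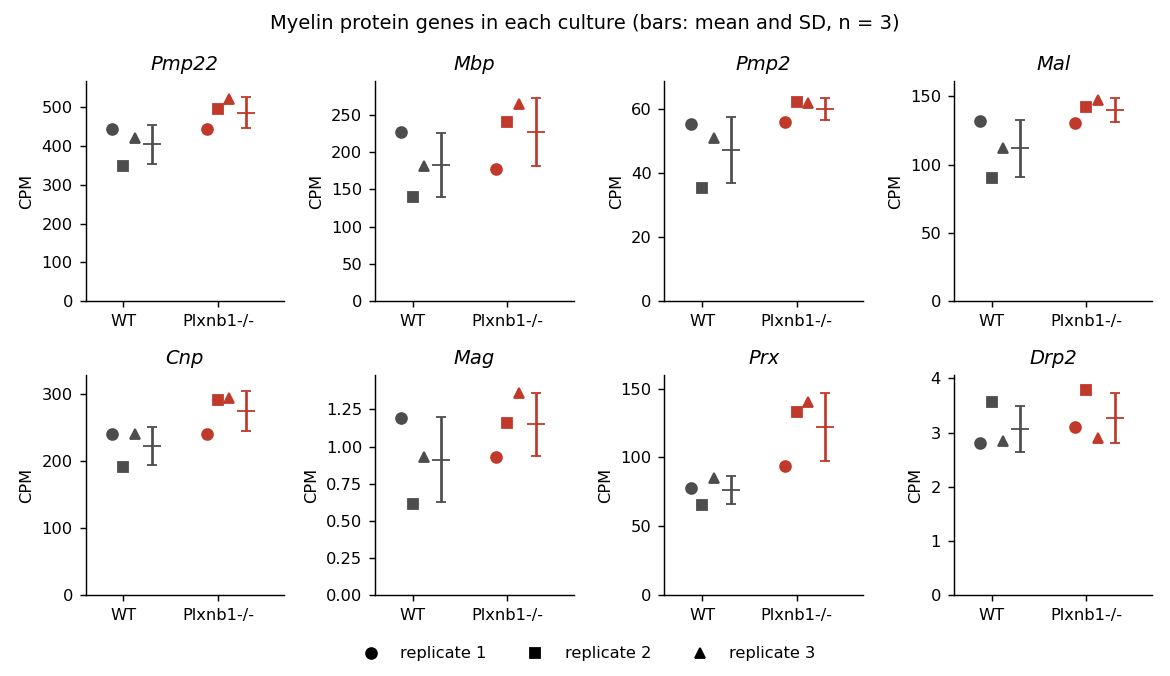
CPM (the count of a gene relative to the total count of its library) of each gene in each library, with the mean and SD of the 3 libraries of a genotype beside the points and every axis starting at 0. WT replicate 2 (grey square) is the lowest library for each gene except Drp2, and Plxnb1-/- replicate 1 (red circle) stands near the WT libraries for most genes.

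Prx codes for periaxin, the PDZ-domain protein that links Drp2 and dystroglycan to the inside of the sheath, and it differed most between the genotypes. It measured 77.9, 65.2 and 85.4 CPM in WT replicates 1 to 3 and 93.6, 133 and 140 in Plxnb1-/- replicates 1 to 3. The genotypes did not overlap, and Plxnb1-/- replicate 1 lay closer to the highest WT library than to the other Plxnb1-/- libraries. The means were 76.2 ± 10.2 and 122 ± 24.9 CPM (SD, n = 3 each), a 1.60-fold difference (log2 fold change 0.68, SE 0.15, 95% interval 0.35 to 1.01). It did not pass edgeR's test across all genes (unadjusted p = 0.00125, adjusted p = 0.266). DESeq2 gave the same log2 fold change with an adjusted p of 0.000232, and edgeR without the filter gave an adjusted p of 0.00810. The DESeq2 call was lost without WT replicate 1 (adjusted p = 0.0800), without WT replicate 2 (0.263) and without Plxnb1-/- replicate 3 (0.0511), and remained without WT replicate 3 (0.000910), Plxnb1-/- replicate 1 (5.43e-10) or Plxnb1-/- replicate 2 (0.0361). By edgeR the log2 fold change without WT replicate 2 was 0.58 (adjusted p = 0.323).

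Prx lies on chromosome 7 from 27499324 to 27520214 on the plus strand (GRCm38), and 4964 of its 5579 exonic bases belong to a single exon block that holds most of the coding sequence. The antisense gene Gm15541 covers 300 of those exonic bases and measured 3.80, 2.96 and 3.71 CPM in WT against 4.05, 6.07 and 6.72 in Plxnb1-/- SCs, the same log2 fold change of 0.68 as Prx. The strand setting of the counting is not given in the sources used here, so reads of the antisense gene and of Prx cannot be told apart where they overlap, though the antisense gene had between 173 and 466 counts where Prx had between 3818 and 9701.

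Drp2, dystrophin-related protein 2, is the binding partner of periaxin at the outer membrane, and its values did not follow those of Prx. It measured 2.80, 3.57 and 2.85 CPM in WT and 3.11, 3.78 and 2.91 in Plxnb1-/- SCs (179 to 274 counts). Replicate 2 was the highest library of each genotype and the genotypes overlapped. The log2 fold change was 0.09 (SE 0.14, 95% interval -0.23 to 0.42, edgeR adjusted p = 0.823), the smallest among the 8 genes. Drp2, on the X chromosome from 134404551 to 134456573, was the only one of the 8 that was not lowest in WT replicate 2, and without Plxnb1-/- replicate 2 its log2 fold change was -0.03.

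Pmp22 codes for a tetraspan protein of compact myelin whose dosage is altered in inherited demyelinating neuropathy. It measured 443, 348 and 420 CPM in WT and 443, 496 and 521 in Plxnb1-/- SCs. WT replicate 1 and Plxnb1-/- replicate 1 were nearly equal, while the other Plxnb1-/- libraries lay above all WT libraries. The log2 fold change was 0.27 (SE 0.09, 95% interval 0.06 to 0.48, edgeR adjusted p = 0.295). Mbp codes for myelin basic protein, which holds the cytoplasmic faces of the membrane together. It measured 227, 140 and 182 CPM in WT against 177, 241 and 264 in Plxnb1-/- SCs, so that WT replicate 1 lay above Plxnb1-/- replicate 1. Its log2 fold change of 0.31 had an interval that reached below 0 (SE 0.18, -0.09 to 0.72, edgeR adjusted p = 0.475).

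Pmp2, a fatty acid binding protein of peripheral myelin, measured 55.2, 35.3 and 50.7 CPM in WT and 55.8, 62.1 and 61.6 in Plxnb1-/- SCs. The genotypes did not overlap, but only the difference between 55.2 and 55.8 kept WT replicate 1 and Plxnb1-/- replicate 1 apart. The log2 fold change was 0.34 (SE 0.14, 95% interval 0.03 to 0.65, edgeR adjusted p = 0.333). Gm37389, annotated on the same strand, covers 1224 of the 1408 exonic bases of Pmp2 on chromosome 3 (10179851 to 10183929), and its counts of 1796 to 3891 were close to those of Pmp2 itself (2068 to 4498), so the level of Pmp2 is uncertain where both are annotated. Mal, a raft protein that carries myelin cargo to the membrane, measured 132, 90.5 and 112 CPM in WT and 130, 142 and 147 in Plxnb1-/- SCs. Only WT replicate 1 reached into the Plxnb1-/- range, and the log2 fold change was 0.32 (SE 0.12, 95% interval 0.06 to 0.59, edgeR adjusted p = 0.306).

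Cnp codes for an enzyme of the uncompacted cytoplasmic channels. It measured 240, 191 and 240 CPM in WT and 241, 291 and 294 in Plxnb1-/- SCs. The genotypes did not overlap, with Plxnb1-/- replicate 1 just above a pair of WT libraries. The log2 fold change was 0.30 (SE 0.10, 95% interval 0.07 to 0.53, edgeR adjusted p = 0.293). Dnajc7, on the opposite strand, covers 154 of the 3639 exonic bases of Cnp and measured 115 to 123 CPM (log2 fold change -0.01). Mag codes for the adhesion protein on the axonal face of the sheath and was barely detected, at 1.19, 0.615 and 0.932 CPM in WT and 0.933, 1.16 and 1.36 in Plxnb1-/- SCs (36 to 94 counts). The genotypes overlapped, and its interval was the widest of the 8 (log2 fold change 0.32, SE 0.25, -0.24 to 0.89, edgeR adjusted p = 0.595).

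**Figure D3:**
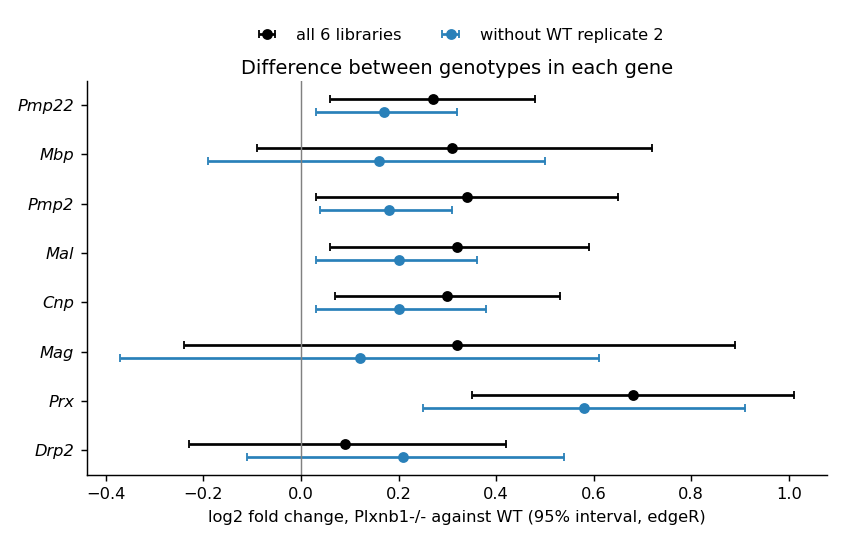
Log2 fold change of each gene in Plxnb1-/- against WT SCs with its 95% interval from edgeR, from all 6 libraries (black) and without WT replicate 2 (blue). Without that library the estimates lie between 0.12 and 0.58, and Prx remains the farthest from 0.

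The genes other than Drp2 varied together from culture to culture. The mean log2 CPM of all 8, centred on each gene's mean, was 0.01, -0.41 and -0.11 in WT replicates 1 to 3 and -0.03, 0.26 and 0.28 in Plxnb1-/- replicates 1 to 3. WT replicate 2 was lowest for 7 of the 8 genes, as it was for 27.0% of all tested genes, and Plxnb1-/- replicate 1 was the lowest of its genotype for 7 of the 8. Plxnb1-/- replicate 1 exceeded every WT library in 3 of the 8 genes, and Plxnb1-/- replicates 2 and 3 did so in 7 each. The matching shares of all tested genes are not given for the Plxnb1-/- libraries. Whether these counts set the 8 genes apart from other genes therefore cannot be told. Without WT replicate 2 all 8 genes were still higher in Plxnb1-/- SCs, but their median log2 fold change was 0.19 in place of 0.32.

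The summed markers of SCs and of other cell types also varied between the libraries. The summed CPM of 9 SC identity markers was 3580, 3060 and 3610 in WT and 3630, 3990 and 4100 in Plxnb1-/- cultures. The summed CPM of 10 fibroblast markers went the other way, at 11900, 15300 and 12600 in WT and 10900, 11400 and 11000 in Plxnb1-/- cultures, and 9 of the 10 had a lower mean in Plxnb1-/- cultures (median log2 fold change -0.27). Without WT replicate 2, 6 of the 10 were lower and the median was -0.12. Most of the sum came from Col1a1 and Col3a1 (means of 5640 and 4900 CPM, log2 fold changes -0.30 and -0.23), while Dcn, Lum and Col15a1 stood at -0.01, 0.08 and -0.07. The study reports Col1a1 among the matrix genes reduced in Plxnb1-/- SCs. Whether the lower sum reflects fewer fibroblasts was not tested. The 8 mural cell markers summed to 1910, 2540 and 2120 CPM in WT and to 1860, 1850 and 1730 CPM in Plxnb1-/- cultures, with 5 of the 8 lower (median -0.21, and -0.12 without WT replicate 2). WT replicate 2 had the lowest SC sum and the highest fibroblast and mural sums, and no WT culture was below any Plxnb1-/- culture in either of the last sums. Thy1, the surface protein used to remove fibroblasts, measured 429, 652 and 490 CPM in WT and 410, 409 and 384 in Plxnb1-/- cultures. The part of cell composition in the differences of the myelin genes was not tested.

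**Figure D4:**
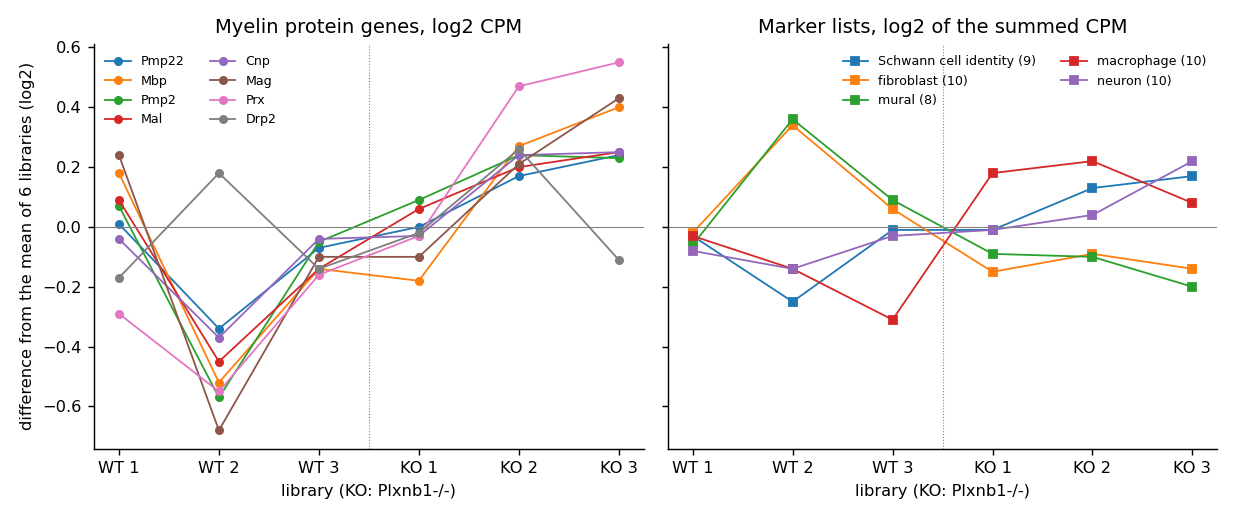
Left, log2 CPM of each of the 8 genes as the difference from its own mean over the 6 libraries; right, the same for the summed CPM of the marker lists, with the number of genes in brackets. The lines join values of the same gene or list and imply no order of libraries; in WT replicate 2 the fibroblast sum stands 0.34 above its mean and the SC identity sum 0.25 below.

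Set against the SC identity markers, the difference was smaller. The summed CPM of the 8 genes divided by the summed CPM of the identity markers was 0.329, 0.285 and 0.303 in WT and 0.315, 0.343 and 0.349 in Plxnb1-/- cultures, with means of 0.306 ± 0.0221 and 0.336 ± 0.0181 (SD, n = 3 each) and a log2 ratio of 0.14, where the summed CPM itself had a log2 ratio of 0.33. The genotypes overlapped on this measure. For Prx alone, CPM per 100 CPM of identity markers was 2.18, 2.13 and 2.36 in WT and 2.58, 3.32 and 3.41 in Plxnb1-/- cultures (2.22 ± 0.123 against 3.11 ± 0.458, log2 ratio 0.48), and Prx was the only one of the 8 whose genotypes stayed apart. Pmp22, Mbp, Mag, Cnp, Mal and Pmp2 had log2 ratios of 0.08 to 0.16 with overlapping genotypes, and Drp2 stood at -0.12. The identity list shares 3 genes with the list of other myelin genes, among them the adhesion gene Cadm4, and S100b, whose protein is a standard SC marker, was low on it at 7.09 to 8.22 CPM.

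Mbp, Mag, Cnp and Mal are made by oligodendrocytes of the central nervous system too. Of 9 oligodendrocyte markers, 5 were tested, and the 9 summed to between 3.97 and 6.04 CPM, nearly all from Myrf (2.65 to 4.55) and Cldn11 (0.82 to 2.03). Mog, Mobp and Opalin, which define that cell type, had 0 to 6 counts in a library.

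Genes outside the 8 were taken from lists made for this comparison. Among 20 other myelin genes, the mean was higher in Plxnb1-/- SCs for 17 and lower for 3 (median log2 fold change 0.22). By edgeR 0 were called and by DESeq2 Bcas1 and Ugt8a were. The share beside this list and the SC lists below is 0.69% of all tested genes called higher by DESeq2. Bcas1, a gene of myelin-forming cells, measured 3.06, 1.50 and 2.39 CPM in WT and 3.00, 5.02 and 5.84 in Plxnb1-/- SCs (log2 fold change 0.99, SE 0.28, edgeR adjusted p = 0.273, DESeq2 adjusted p = 0.0161). WT replicate 1 lay above Plxnb1-/- replicate 1, as it did in Mbp, Mag and Mal, of which Mbp and Mag overlapped further. Ugt8a, the enzyme that makes galactosylceramide of myelin, measured 5.44, 4.05 and 5.06 CPM in WT and 6.44, 6.32 and 7.65 in Plxnb1-/- SCs without overlap (log2 fold change 0.49, SE 0.13, edgeR adjusted p = 0.273, DESeq2 adjusted p = 0.0290). Cldn19, the claudin of the myelin loops, had a log2 fold change of 0.62 with overlapping genotypes (edgeR adjusted p = 0.441). Mpzl1, Dusp15 and Ncmap were the 3 with lower means, at log2 fold changes of -0.24, -0.04 and -0.03.

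Of 20 regulators of myelination, 15 were higher and 5 lower (median log2 fold change 0.15), with 0 called by edgeR and Rxrg and Id2 called by DESeq2. Rxrg, a retinoid X receptor, measured 2.05, 1.23 and 1.33 CPM in WT and 2.12, 3.30 and 3.33 in Plxnb1-/- SCs (log2 fold change 0.92, SE 0.24, edgeR adjusted p = 0.273, DESeq2 adjusted p = 0.0143). Id2, which restrains differentiation, measured 90.9, 63.3 and 81.5 CPM in WT and 102, 110 and 113 in Plxnb1-/- SCs (log2 fold change 0.46, SE 0.11, edgeR adjusted p = 0.266, DESeq2 adjusted p = 0.00566). Pou3f2, a POU factor that acts before Egr2, had a log2 fold change of 0.33 (edgeR adjusted p = 0.285). Egr1, Nfatc4 and Nab1 had the lowest values, at -0.18, -0.17 and -0.14. Among the factors whose motifs were searched, the log2 fold change was 0.16 for Egr2, 0.18 for Sox10 and 0.11 for Tead1.

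Around Prx and Drp2, 15 of 17 genes of the dystroglycan complex and its laminin and integrin partners were tested, and 15 of 15 were higher (median log2 fold change 0.18), with 0 called by edgeR. Itgb4, the laminin-binding integrin subunit of the outer SC membrane, was called by DESeq2 and measured 108, 88.5 and 104 CPM in WT and 118, 130 and 153 in Plxnb1-/- SCs (log2 fold change 0.42, SE 0.10, edgeR adjusted p = 0.266, DESeq2 adjusted p = 0.00706). Lama2, a laminin chain of the SC basal lamina, had a log2 fold change of 0.35 and Dmd one of 0.29, both without overlap between genotypes, while Dtnb, Sgcb and Sntb1 stood at 0.03, 0.06 and 0.07. WT replicate 2 was lowest in 14 of the 15. Without it the median was 0.08 and 14 of the 15 were higher.

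Immature and repair SC genes, which in vivo are high where the myelin program is low, also had mostly higher means. Of 14 tested, 13 were higher and 1 was lower (median log2 fold change 0.20), with 0 called by edgeR or DESeq2. Ngfr, the low-affinity neurotrophin receptor, had a log2 fold change of 0.30 and Notch1 one of 0.27, both without overlap between genotypes, and the repair factor Jun stood at 0.03. Among the 9 SC identity genes, 8 were higher (median log2 fold change 0.19). Gfra3, a receptor subunit for artemin, was called by DESeq2 and measured 2.72, 1.76 and 1.58 CPM in WT and 2.85, 4.10 and 4.92 in Plxnb1-/- SCs (log2 fold change 0.97, SE 0.24, edgeR adjusted p = 0.273, DESeq2 adjusted p = 0.00738). Erbb3, the neuregulin receptor, had a log2 fold change of 0.27, and Foxd3 stood at -0.02. Without WT replicate 2 the medians were 0.18 for the other myelin genes and 0.09 for both the regulators and the immature and repair genes, beside 0.19 for the 8 genes.

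**Figure D5:**
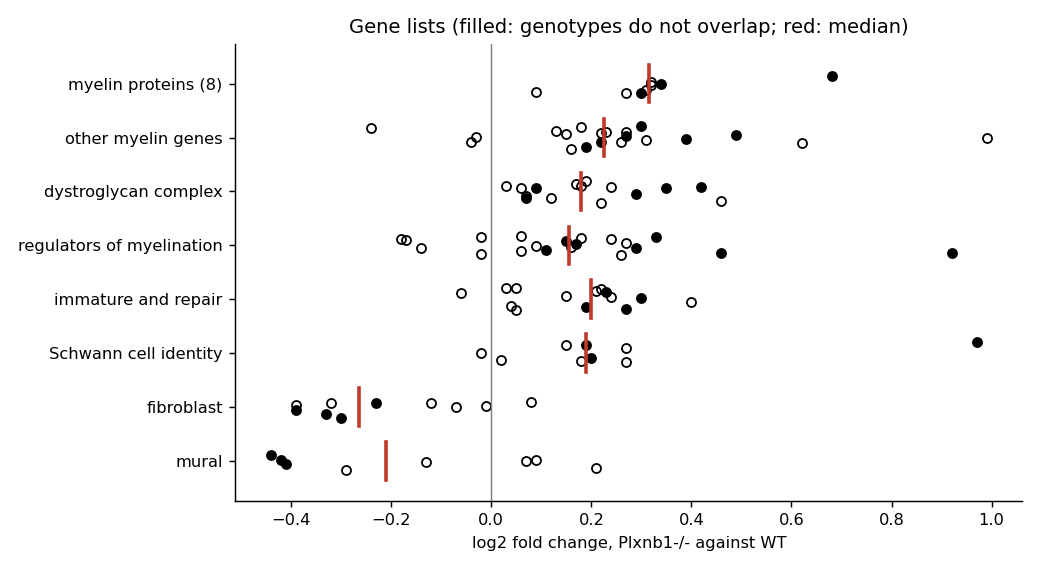
Log2 fold change in Plxnb1-/- against WT cultures of every tested gene of each list, filled where the 3 WT and 3 Plxnb1-/- libraries do not overlap, with the median in red. The medians of the SC lists lie between 0.15 and 0.32, and those of the fibroblast and mural lists at -0.27 and -0.21.

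The genes whose pattern over the 6 libraries was closest to the mean of the 8, by the root mean square difference of centred log2 CPM among 14984 genes of at least 1 CPM, were Ampd3 (0.0295), AC154187.1 (0.0343) and Kcnab3 (0.0374). Ampd3 measured 23.1, 18.0 and 21.6 CPM in WT and 22.7, 26.9 and 27.5 in Plxnb1-/- SCs, with the same low value in WT replicate 2 and the same step between Plxnb1-/- replicate 1 and the other 2.

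The targeted gene checked the labels. Plxnb1 measured 61.8, 45.4 and 96.4 CPM in WT and 13.1, 16.6 and 18.6 in Plxnb1-/- SCs (log2 fold change -2.08, SE 0.25, edgeR adjusted p = 0.0449). By edgeR this call was lost without WT replicate 1 (adjusted p = 0.0886) and with each of the 3 Plxnb1-/- libraries left out in turn (adjusted p = 0.125 to 0.268), with no WT library as low as a Plxnb1-/- library. The study reports that exons after the inserted cassette lost expression in Plxnb1-/- SCs, while the counts here span all annotated exons. Which exons the remaining counts come from was not tested. The antisense gene Gm7628 covers 257 of the 9592 exonic bases of Plxnb1. Across all genes edgeR called 1 higher and 7 lower, with 1550 higher and 1513 lower at an unadjusted p below 0.05, and DESeq2 called 154 higher and 181 lower. Total counts lay between 59252048 and 77280964 per library, where 3 counts correspond to between 0.0388 and 0.0506 CPM.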

How the data were processed

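Poly(A) RNA of 6 SC cultures was sequenced with a stranded kit. According to the study's methods and the processing notes, the authors trimmed reads with Trim Galore 0.6.5, aligned them to mm10 with Bowtie2 2.4.1, removed duplicates with SAMtools 1.10 and assigned reads to GENCODE exons with featureCounts. Bowtie2 does not split reads over introns, so reads across exon junctions can be lost, and removal of duplicates without molecular identifiers compresses abundant genes. The deposited count table holds raw counts per gene. The authors also deposited FPKM values, used here only as an alternative. Of 55401 rows, 55141 were found in the GRCm38 annotation at hand (GENCODE, an older release than that of the authors). Gene lengths are the union of annotated exons.

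Groups were taken from the labels. Genes with 2 or more counts in 5 or more of the 6 libraries were tested with edgeR 4.0.16 under R 4.3.3 (TMM, quasi-likelihood, genotype only), with Benjamini-Hochberg adjustment over 22318 genes. Called genes had an adjusted p below 0.05 and a log2 fold change beyond 0.25 in either direction. SEs came from the log2 fold change and edgeR's F statistic. CPM values use library totals scaled by the TMM factors. Alternatives were DESeq2 1.42.0 (the study's tool), limma 3.58.1 (voom, and log2(FPKM + 0.1) or log2(FPKM + 1)), other filters, a replicate block and each library left out. DESeq2 with each library left out was chosen after seeing the data. The fitting code was tested on simulated data. The 3 libraries of a genotype limit precision, and floors in counts cover counting error only.

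The 8 genes and the gene lists were chosen with earlier results of these data known, and no list is independent support. Beyond the 8, the genes named are those whose exons overlap a member, the 3 highest and 3 lowest of each SC list with a mean of at least 1 CPM, the 2 most abundant of each list of other cell types, and the 3 genes closest in pattern. Some genes that this rule names are not reported here. Tead1, Egr2, Sox10, Dcn, Lum, Col15a1, Thy1, Mki67, Mog, Mobp and Opalin were added after their values were seen.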

Additional observations from a re-analysis of the deposited data

How the results depend on the processing

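The log2 fold changes of the 8 genes kept their sign under every alternative run except that of Drp2, which lay between -0.03 and 0.21 and was -0.03 without Plxnb1-/- replicate 2 by edgeR and by DESeq2. Prx ranged from 0.55 to 0.84, with adjusted p from 5.43e-10 to 0.673, and the median of the 8 from 0.19 to 0.47. The number of the 8 called was 0 by edgeR and 1 by DESeq2 and by edgeR without the filter; by DESeq2 with a library left out it lay between 0 and 4, and was 4 without WT replicate 1 (Pmp22, Cnp, Mal and Pmp2), 2 without Plxnb1-/- replicate 1 (Prx and Cnp), 1 without WT replicate 3 or Plxnb1-/- replicate 2, and 0 without WT replicate 2 or Plxnb1-/- replicate 3. In those fits DESeq2 called higher 2.18% of all tested genes without WT replicate 1, 0.654% without Plxnb1-/- replicate 1 and 0.0627% to 0.372% without each of the others. The number of the 8 that were higher without overlap between genotypes ranged from 3 to 6 with a library left out. It was 6 without WT replicate 1 and without Plxnb1-/- replicate 1. Of all tested genes, 17.2% were higher without overlap in each of these cases, and 12.3% to 15.1% with each other library left out. Genes called in the other SC lists numbered 6 by DESeq2 and 5 without the filter, against 0 by edgeR. Over all other lists they numbered 11 and 9 of 142, again against 0 by edgeR. Across all genes DESeq2 called 335 of 22318, and edgeR without the filter called 296 of 31191. The ratio of the 8 to the identity markers ranged from 0.09 to 0.19 (log2) with a library left out. By deposited FPKM 0 of 8 genes held its rank.

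Across all genes, 8 were called by edgeR, 335 by DESeq2, 296 without the filter, 3 by limma on log2(FPKM + 0.1) and 3 on log2(FPKM + 1), and 4 to 25 with a library left out, with 25 without WT replicate 2. The log2 fold change of Plxnb1 missed the threshold at -2.08 with robust dispersion (adjusted p = 0.220), -2.04 with voom (0.108), -2.08 with at least 10 counts in 3 libraries (0.0648), -1.86 on log2(FPKM + 0.1) and -1.14 on log2(FPKM + 1) (0.413 each); with a library left out it lay between -2.30 and -1.74, and missed the threshold without WT replicate 1 (adjusted p = 0.0886) and without Plxnb1-/- replicate 1 (0.255), 2 (0.268) or 3 (0.125). The cause was not tested for any of these.

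Replicate numbers occur in both genotypes, but the deviations of same-numbered libraries correlated at -0.022, 0.008 and 0.065, so the numbers were not taken as pairs. With the replicate block 5 genes were called, 0 of the 8 among them.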

Other observations

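Macrophage, neuron and cell cycle genes also had higher means in Plxnb1-/- cultures, with 0 called by edgeR. All 10 macrophage markers were higher (median log2 fold change 0.26, and 0.32 without WT replicate 2), and their summed CPM was 146, 135 and 120 in WT and 169, 174 and 157 in Plxnb1-/- cultures without overlap. Lyz2, the lysozyme of macrophages, measured 99.7, 89.8 and 79.5 CPM in WT and 114, 118 and 110 in Plxnb1-/- cultures (log2 fold change 0.35, SE 0.08, edgeR adjusted p = 0.266, DESeq2 adjusted p = 0.00595), and Csf1r had a log2 fold change of 0.23 (edgeR adjusted p = 0.273). This list, unlike the 8 myelin genes, was lowest in WT replicate 3.

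All 10 neuron markers were higher (median log2 fold change 0.35), at a summed 165 to 179 CPM in WT and 181 to 212 CPM in Plxnb1-/- cultures, led by Tubb3 (log2 fold change 0.12) and Prph (0.37). All 12 cell cycle genes were higher (median 0.14; without WT replicate 2, 10 of 12 and 0.06), with overlapping sums, and Mki67 measured 373, 245 and 308 CPM in WT and 368, 358 and 444 in Plxnb1-/- cultures (log2 fold change 0.34, edgeR adjusted p = 0.342). The endothelial list had 6 of 8 genes lower (median -0.25, and -0.12 without WT replicate 2), and the satellite glia list 5 of 6 tested higher (median 0.11, and 0.06 without WT replicate 2), led by Kcnj10 at 639 to 798 CPM.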
